A study of Mus musculus with 12 samples.

Results

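The MYC, MAX and MXD network was followed in mouse splenic B cells through 10 genes, Myc, Mycn, Max, Mlx, Mxd1, Mxi1, Mxd3, Mxd4, Mnt and Mga, out of 18193 genes with a probe set of their own on the array. The members were taken as every probe set annotated to one of these symbols, which gave 26 of the 45037 probe sets tested, and none of the 26 was annotated to a second gene. RNA came from cells of transgenic mice with the EFLmDREAM transgene, made from DREAM, and from wild type mice. DREAM is the calcium-binding transcriptional repressor encoded by Kcnip3. The groups were transgenic cells after 2 days with lipopolysaccharide (LPS) at 20 µg/ml and interleukin 4 (IL-4) at 10 ng/ml (day 2), wild type cells after the same 2 days, unstimulated transgenic cells (day 0) and unstimulated wild type cells (day 0). LPS drives B cells to divide through TLR4, and IL-4 directs class switching. Each group held 3 arrays from independent replicates, 12 in all. Neither the promoter that drives the transgene nor the age of the mice is given in the labels. All cells had been isolated by depleting CD43-positive spleen cells, with a stated purity above 98%.

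MAX is the common partner of the network. Paired with MYC or MYCN it activates genes with an E-box, the sequence CACGTG, and paired with MXD1, MXI1, MXD3, MXD4 or MNT it represses them through the SIN3 and HDAC corepressor. MGA pairs with MAX inside a Polycomb complex, and MLX is a related partner that pairs with MXD1, MXD4 and MNT and with the glucose-responsive factors MLXIP and MLXIPL. In B cells, MYC is known for driving the growth that precedes division after activation, while MXD proteins are known mainly from resting and differentiating cells.

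The E-box that the network binds was also looked for in the members themselves, because a member with an E-box near its own start could be bound by the others. RefSeq windows from 250 bases before to 50 bases after a transcript start (GRCm38.p6) were at hand for 9 of the 10 genes, Myc being the exception, with 11 windows in all. CACGTG, which reads the same on both strands, lay in 4 of the 11 windows, those of Mnt, Mxd4, Mlx and Max, and in 7.15% of all 32851 windows. The E-box is in capitals in the next 4 sequences, each written 5′ to 3′ on the strand of the gene. For Mnt (chr11:74830674-74830973, plus strand) and Mxd4 (chr5:34187661-34187960, minus strand) the whole window is shown, since these genes fell most among the repressors. For Mlx (chr11:101087226-101087279, plus strand) and Max (chr12:76962222-76962275, minus strand) the E-box is shown with its flanks.
Mnt: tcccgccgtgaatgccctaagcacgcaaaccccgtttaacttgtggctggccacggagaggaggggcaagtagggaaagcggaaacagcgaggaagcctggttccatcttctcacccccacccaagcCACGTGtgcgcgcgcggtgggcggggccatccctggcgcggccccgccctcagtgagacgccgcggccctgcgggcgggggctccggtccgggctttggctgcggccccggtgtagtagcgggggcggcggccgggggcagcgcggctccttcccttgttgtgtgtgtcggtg
Mxd4: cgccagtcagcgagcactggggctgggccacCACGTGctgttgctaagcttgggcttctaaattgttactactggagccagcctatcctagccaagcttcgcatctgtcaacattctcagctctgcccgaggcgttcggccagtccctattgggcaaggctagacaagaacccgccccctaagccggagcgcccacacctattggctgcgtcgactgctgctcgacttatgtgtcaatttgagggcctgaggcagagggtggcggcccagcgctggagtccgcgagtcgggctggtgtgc
Mlx: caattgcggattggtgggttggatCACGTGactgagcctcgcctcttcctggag
Max: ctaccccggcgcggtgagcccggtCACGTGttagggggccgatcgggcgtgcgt
The E-box began 123 bases before the transcript start of its window in Mnt, 219 in Mxd4, 40 in Mlx and 3 in Max. That start is the outermost 5′ end of the gene coordinates given below in Mxd4 and Mycn, and lies inside the gene by 118 bases in Mnt, 583 in Mlx and 75 in Max. E2F sites, searched on both strands as TTTGGCGC, TTTCCCGC, TTTGCCGC and TTTCGCGC, lay in the Mycn window alone (chr12:12941973-12942043, minus strand, the first beginning 183 bases before the transcript start), against 2.26% of all windows. The Mycn stretch holds 3 matches, of which the first and second overlap, and the matched bases are in capitals.
Mycn: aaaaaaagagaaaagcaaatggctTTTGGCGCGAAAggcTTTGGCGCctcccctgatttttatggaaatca
A match describes these letters and is not evidence that a factor binds there.

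Levels are log2 values, and each difference comes with its SE from limma. Array medians were 5.37 to 5.41 in the 6 stimulated arrays and 5.97 to 6.05 in the 6 unstimulated ones. Genotypes were therefore compared on the deposited values within a day, and days were compared after quantile normalization of the 12 arrays together. A difference is called where the Benjamini-Hochberg adjusted p over all 45037 probe sets lay under 0.05. Arrays of a group correlated at 0.984 to 0.997. The wild type day 0 replicate 1 array stood apart in the 5′ minus 3′ difference of its beta-actin control probes, a measure of RNA integrity, at −2.22 against −0.67 to −0.54 in the other 5 unstimulated arrays. Replicate 3 of every group also differed from replicates 1 and 2 in the Y-linked gene Eif2s3y, at 3.33 to 3.78 against 8.27 to 9.55. All 7 measured B cell markers lay above the array median on all 12 arrays. Of the 26 probe sets, 21 lay above the array median on all 12 arrays, 4 lay below it on all 12 (Mycn 1417155_at and Mga 1422646_at, 1442356_at and 1433012_at), and Mxd3 1448878_at lay above it on the 6 stimulated arrays alone. Levels are not compared between probe sets, and fewer cells of a type cannot be told apart from less RNA per cell.

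In each genotype 15 of the 26 probe sets of the network were called after stimulation. Among all 45037 probe sets, 24843 were called in transgenic and 25548 in wild type cells. The network's total share of calls was thus near the background. After 2 days with LPS and IL-4, Myc, Mnt and Mxd4 were lower and Mxd3 was higher at 1 or more probe sets each in transgenic and in wild type cells, under each of 3 scalings of the arrays. In transgenic cells 6 probe sets of the network were called higher and 9 lower, against 30.1% higher and 25.1% lower among all probe sets. In wild type cells 6 were called higher and 9 lower, against 30.6% higher and 26.1% lower. The network's share of higher calls thus lay below the background and its share of lower calls above it by a few probe sets. The median difference over the 26 probe sets was −0.06 in transgenic and 0.05 in wild type cells, and that over all probe sets 0.04 in both.

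Markers of other cell types, and of B cells, moved with stimulation too. Granulocyte markers were lower at 9 of 9 genes in transgenic cells, where their mean level was 5.55 to 5.82 at day 2 and 9.57 to 10.15 at day 0. In wild type cells 5 of 9 were lower, with a mean level of 5.11 to 5.19 at day 2 and 5.91 to 6.18 at day 0. Macrophage and monocyte markers were lower at 9 of 10 genes in transgenic cells and 5 of 10 in wild type cells, and higher at 1 in each, with medians of −1.86 in transgenic and −0.50 in wild type cells. Erythroid markers were lower at 7 of 7 genes in transgenic cells and 5 of 7 in wild type cells, with medians of −2.64 in transgenic and −0.58 in wild type cells. Of 9 T and NK cell markers 5 were lower and 0 higher in transgenic cells, and 4 lower and 1 higher in wild type cells. Of 7 plasma cell markers 4 were lower and 2 higher in transgenic cells, and 4 lower and 3 higher in wild type cells. Of 5 platelet markers 1 was lower and 1 higher in transgenic cells, and 1 lower and 0 higher in wild type cells. B cell markers were lower at 5 of 7 genes in each genotype, with a mean level of 10.89 to 10.98 in transgenic and 10.78 to 10.93 in wild type cells at day 2, against 12.03 to 12.12 in transgenic and 12.07 to 12.21 in wild type cells at day 0. With array medians subtracted, 4 B cell markers were lower and 1 was higher in each genotype. The part of these shifts in the changes of the network and of the lists around it was not tested.

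The scaling sets how many of the small changes are called. The median difference of all probe sets was 0.04 in either genotype after joint quantile normalization, −0.40 on the deposited values, and 0.24 in transgenic and 0.22 in wild type cells with array medians subtracted. On the deposited values 1 of the 26 probe sets of the network was called higher and 19 lower in each genotype. Of all 45037 probe sets, 6181 were higher and 29226 lower there in transgenic cells, and 6363 and 29192 in wild type cells. With array medians subtracted 10 of the 26 were higher and 8 lower in transgenic cells and 10 higher and 7 lower in wild type cells. Of all probe sets, 22092 were then higher and 8164 lower in transgenic cells, and 21404 and 8802 in wild type cells. Higher calls made up 54.6% of all calls in transgenic and 54.0% in wild type cells on the main scale, 17.5% in transgenic and 17.9% in wild type cells on the deposited values, and 73.0% in transgenic and 70.9% in wild type cells with array medians subtracted. Called in 1 direction under all 3 scalings and in both genotypes were 1 higher probe set, Mxd3 1448878_at, and 6 lower ones, those of Myc, Mxd1 (1455104_at), Mxd4 (1434378_a_at and 1434379_at), Mnt (1418192_at) and Mga (1442356_at). Stimulation differences below are on the quantile-normalized scale. The value under a scaling that turns one is given beside it, except for genes named after their values were seen.

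Myc (1424942_a_at, gene at chr15:61985341-61990361), the proto-oncogene that drives growth and ribosome synthesis, read 9.51, 9.49 and 9.76 in the day 2 transgenic arrays, against 11.27, 11.43 and 11.06 at day 0. In wild type cells it read 9.75, 9.72 and 9.97 at day 2, against 11.10, 10.89 and 11.20 at day 0. In each genotype every stimulated array lay below every unstimulated one. The log2 difference was −1.67 ± 0.12 in transgenic cells (3.18-fold lower, adjusted p = 7.66e-08 by limma) and −1.25 ± 0.12 in wild type cells (2.38-fold lower, adjusted p = 1.11e-06). The fall was smallest with array medians subtracted, at −0.85 in transgenic and −0.43 in wild type cells, and was called there too. Mycn, the paralog best known from embryonic and neural tissue, had no change called under all 3 scalings. Its probe set 1425922_a_at was called higher in transgenic cells at 0.38 ± 0.14 (adjusted p = 0.0360), was −0.24 on the deposited values, and lost the call without day 0 replicate 1 or 3 or day 2 replicate 1 or 2 (0.29 to 0.39). Its probe set 1425923_at was called higher in wild type cells at 0.32 ± 0.11 (adjusted p = 0.0269), was −0.26 on the deposited values, and kept the call without day 0 replicate 3 alone (0.47), the other 5 omissions giving 0.24 to 0.33. The third Mycn probe set, 1417155_at, differed by 0.10 in transgenic and 0.20 in wild type cells and was not called. On the deposited values it was −0.35 in transgenic cells, called lower, and −0.25 in wild type cells, not called.

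Of the partners, Max (1423501_at, gene at chr12:76937269-76962323) read 7.01, 7.15 and 8.03 in day 2 transgenic arrays, against 7.10, 7.66 and 6.98 at day 0. The wild type readings were 7.39, 7.60 and 7.71 at day 2, against 7.11, 7.32 and 6.81 at day 0. The transgenic groups overlapped and the wild type groups did not. The difference was 0.15 ± 0.24 in transgenic cells (95% interval −0.38 to 0.68) and 0.49 ± 0.24 in wild type cells (−0.04 to 1.02), and neither was called. The transgenic value was −0.34 on the deposited values, also not called. The wild type value was called higher with array medians subtracted (0.65, adjusted p = 0.042 by limma). It was also called in a fit on the wild type groups alone (0.49, adjusted p = 0.022), but on the deposited values it was 0.03 and not called. Mlx was called higher at both of its probe sets in both genotypes. Its probe set 1418437_a_at differed by 0.35 ± 0.08 in transgenic cells (adjusted p = 0.0021) and 0.36 ± 0.08 in wild type cells (adjusted p = 0.0016), but on the deposited values by −0.04 in transgenic and −0.01 in wild type cells, not called. Its probe set 1425930_a_at differed by 0.59 ± 0.22 in transgenic and 0.71 ± 0.22 in wild type cells, and on the deposited values by 0.06 in transgenic and 0.18 in wild type cells, not called. In transgenic cells that call was lost without day 0 replicate 1 (0.54), day 0 replicate 3 (0.59) or day 2 replicate 3 (0.42), and in wild type cells the value was 0.39 and still called without day 0 replicate 1.

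Mxd3 rose at 1 of its 3 probe sets under each scaling. The MXD3 protein is known for its presence in cells that are dividing, unlike the other MXD proteins. Its probe set 1448878_at (gene at chr13:55325170-55329900) read 7.11, 7.17 and 7.03 in day 2 transgenic arrays, against 5.10, 5.15 and 5.23 at day 0. In wild type cells it read 6.97, 7.10 and 6.98 at day 2, against 5.14, 5.08 and 5.14 at day 0. The states lay well apart, and the arrays within a group spanned a small part of that distance. The difference was 1.95 ± 0.07 in transgenic cells (3.85-fold higher) and 1.90 ± 0.07 in wild type cells (3.73-fold higher), with an adjusted p of 2.19e-10 by limma in each. The other Mxd3 probe sets moved less. At 1438847_at the difference was 0.72 ± 0.20 in transgenic cells (adjusted p = 0.0081; 0.12 and not called on the deposited values) and 0.05 ± 0.20 in wild type cells (not called, but −0.50 and called lower on the deposited values, adjusted p = 0.034). At 1422970_at it was 0.33 in transgenic and 0.28 in wild type cells, not called, and −0.15 in transgenic and −0.16 in wild type cells on the deposited values. The change of Mxd3 therefore rests mainly on 1 of its 3 probe sets.

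Mxd4, an MXD repressor of resting and differentiated cells, was lower at day 2. Its probe set 1434378_a_at (gene at chr5:34176580-34187710) read 7.14, 7.14 and 7.17 in day 2 transgenic arrays, against 8.72, 8.46 and 8.68 at day 0. Wild type arrays read 7.16, 6.85 and 6.96 at day 2, against 9.23, 8.70 and 8.30 at day 0. The groups did not overlap in either genotype, and the wild type day 0 arrays spread most. The log2 difference was −1.47 ± 0.18 in transgenic cells (2.76-fold lower, adjusted p = 1.20e-05) and −1.75 ± 0.18 in wild type cells (3.37-fold lower, adjusted p = 2.11e-06). At 1434379_at it fell by 0.98 ± 0.12 in transgenic and by 1.31 ± 0.12 in wild type cells. The remaining probe sets moved less. The difference at 1422574_at was −0.26 in transgenic cells, not called, and −0.47 ± 0.13 in wild type cells (adjusted p = 0.0059), and that at 1422575_at was −0.06 in transgenic and −0.07 in wild type cells, not called.

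Mxd1 (gene at chr6:86647044-86669234), the first described MXD repressor, was lower at 1455104_at by −0.38 ± 0.08 in transgenic cells (adjusted p = 0.0012) and −0.27 ± 0.08 in wild type cells (adjusted p = 0.010). Its probe set 1422002_at was called lower too, at −0.34 ± 0.11 in transgenic and −0.31 ± 0.11 in wild type cells. That call was lost in transgenic cells without day 0 replicate 2 or day 2 replicate 1 or 2 (−0.32 to −0.27), and in wild type cells without day 0 replicate 1 or day 2 replicate 1 or 3 (−0.26 to −0.24). The third, 1434830_at, differed by −0.18 in transgenic and 0.05 in wild type cells and was not called. On the deposited values the wild type value was −0.49 and called lower.

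Mxi1 (1450376_at, gene at chr19:53310128-53373293), also called MXD2, read 7.66, 7.51 and 7.36 in day 2 transgenic arrays, against 7.93, 8.03 and 8.30 at day 0. Wild type arrays read 7.62, 7.61 and 7.58 at day 2, against 7.42, 7.60 and 7.35 at day 0. The transgenic groups did not overlap, with day 0 higher, while the wild type groups did. The difference was −0.58 ± 0.11 in transgenic cells (adjusted p = 0.00047) and 0.15 ± 0.11 in wild type cells (adjusted p = 0.26). The wild type value was called lower on the deposited values (−0.27, adjusted p = 0.031 by limma). With array medians subtracted it was called higher (0.34, adjusted p = 0.013), so its direction depends on the scaling. At the other probe set, 1425732_a_at, the difference was 0.07 in transgenic and 0.05 in wild type cells, not called, and −0.55 in both on the deposited values.

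Mnt, the MAX partner that opposes MYC in most tissues, showed the largest change of the 26 probe sets on the quantile-normalized scale. Its probe set 1418192_at (gene at chr11:74830806-74845725) read 7.75, 7.68 and 7.74 in day 2 transgenic arrays, against 9.95, 9.84 and 9.84 at day 0. The wild type arrays read 7.82, 7.72 and 7.71 at day 2, against 10.50, 10.22 and 10.30 at day 0. The day 2 arrays of the genotypes overlapped, and the day 0 arrays lay far above them. The difference was −2.15 ± 0.08 in transgenic cells (4.45-fold lower, adjusted p = 2.60e-10 by limma) and −2.59 ± 0.08 in wild type cells (6.03-fold lower, adjusted p = 4.89e-11). The second probe set of the gene did not follow on this scale. At 1418193_at the difference was 0.21 ± 0.08 in transgenic cells (adjusted p = 0.047) and 0.23 ± 0.08 in wild type cells (adjusted p = 0.030). On the deposited values it was called lower in both genotypes, at −0.42 in transgenic and −0.36 in wild type cells. Its call on the quantile-normalized scale held in transgenic cells only without day 0 replicate 2 (0.28, the other omissions giving 0.16 to 0.24), and in wild type cells it was lost without replicate 2 or 3 of either day (0.20 to 0.24). The probe sets of Mnt thus disagreed in sign on the quantile-normalized scale, as did those of Mga, and the array annotation does not say which transcripts each one detects.

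Mga (gene at chr2:119872503-119970129), the MAX partner of the Polycomb complex PRC1.6, was lower at 1442356_at by −0.32 ± 0.09 in transgenic and −0.33 ± 0.09 in wild type cells, a probe set below the array median throughout. At 1431232_a_at the difference was −0.71 ± 0.22 in transgenic cells (adjusted p = 0.016) and −0.65 ± 0.22 in wild type cells (adjusted p = 0.025). That call was lost with array medians subtracted (−0.36 in transgenic and −0.33 in wild type cells), in transgenic cells without day 0 replicate 3 (−0.61) or day 2 replicate 1 (−0.64), and in wild type cells without day 0 replicate 2 (−0.43) or 3 (−0.58) or day 2 replicate 1 (−0.47). The probe set 1434746_at differed by −0.32 in transgenic and −0.40 in wild type cells and was not called. The wild type value was called with the replicate number as a block (adjusted p = 0.026 by limma) and without day 0 replicate 3 (−0.57). It was also called with dim probe sets left out or a trended prior (adjusted p = 0.048 in each). The transgenic value was called in a fit on the transgenic groups alone (adjusted p = 0.022). On the deposited values both were called lower at −0.64, and with array medians subtracted neither was called. At 1433012_at the difference was 0.19 in transgenic cells, not called, and 0.31 ± 0.09 in wild type cells (adjusted p = 0.010), but on the deposited values −0.35 in transgenic and −0.25 in wild type cells. At 1422646_at it was −0.06 in transgenic and −0.01 in wild type cells (0.01 with array medians subtracted), not called. On the deposited values it was called lower, at −0.68 in transgenic and −0.61 in wild type cells.

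**Figure D1:**
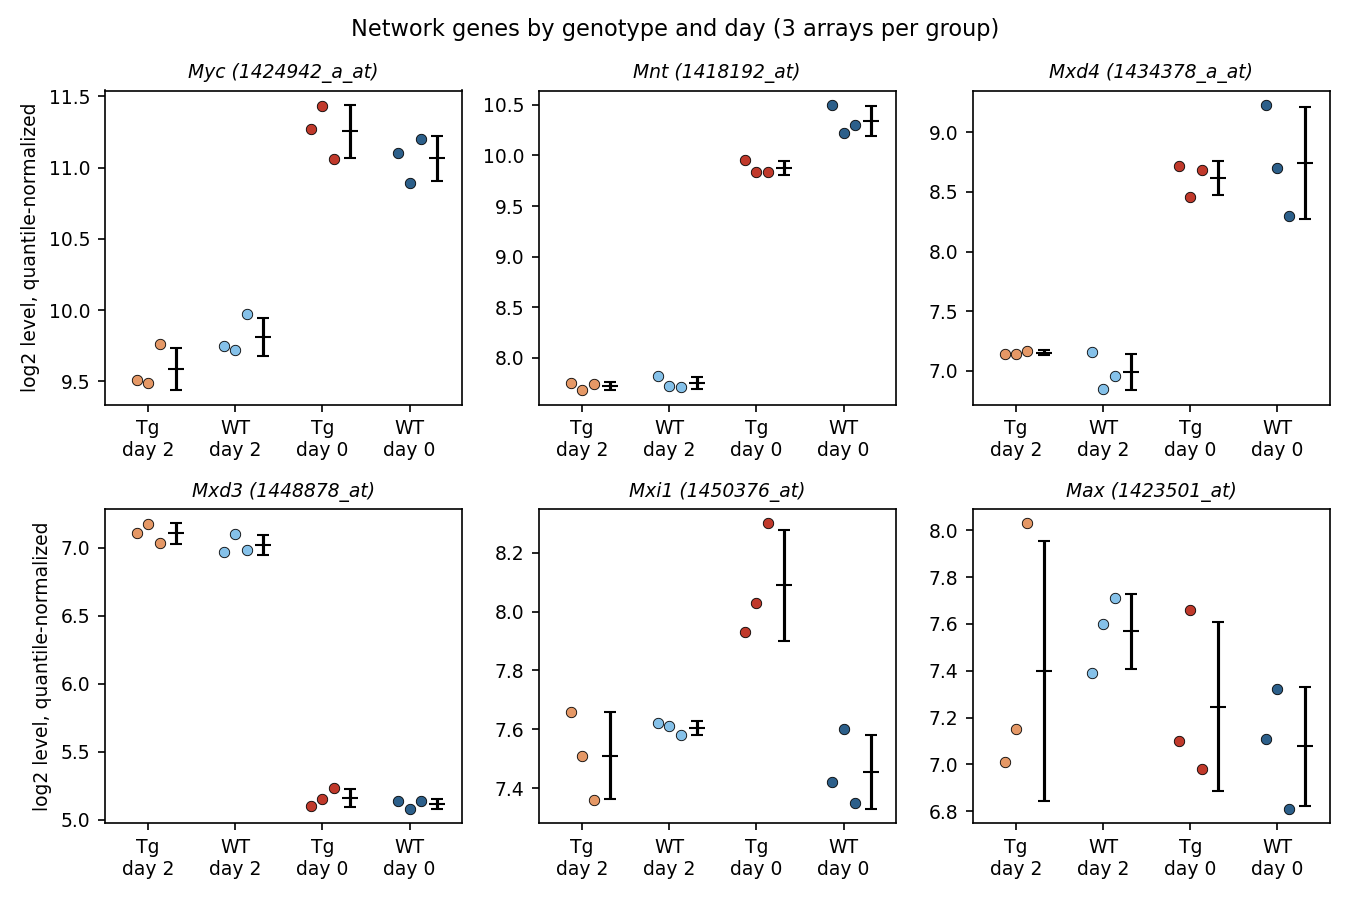
Quantile-normalized log2 level (vertical axis) of 6 probe sets by genotype and day, with 3 arrays per group as points and the mean with its SD as bars. Mnt lies at 7.68 to 7.82 on the 6 stimulated arrays and at 9.84 to 10.50 on the 6 unstimulated ones, and Mxd3 at 6.97 to 7.17 on the stimulated and 5.08 to 5.23 on the unstimulated arrays.

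**Figure D2:**
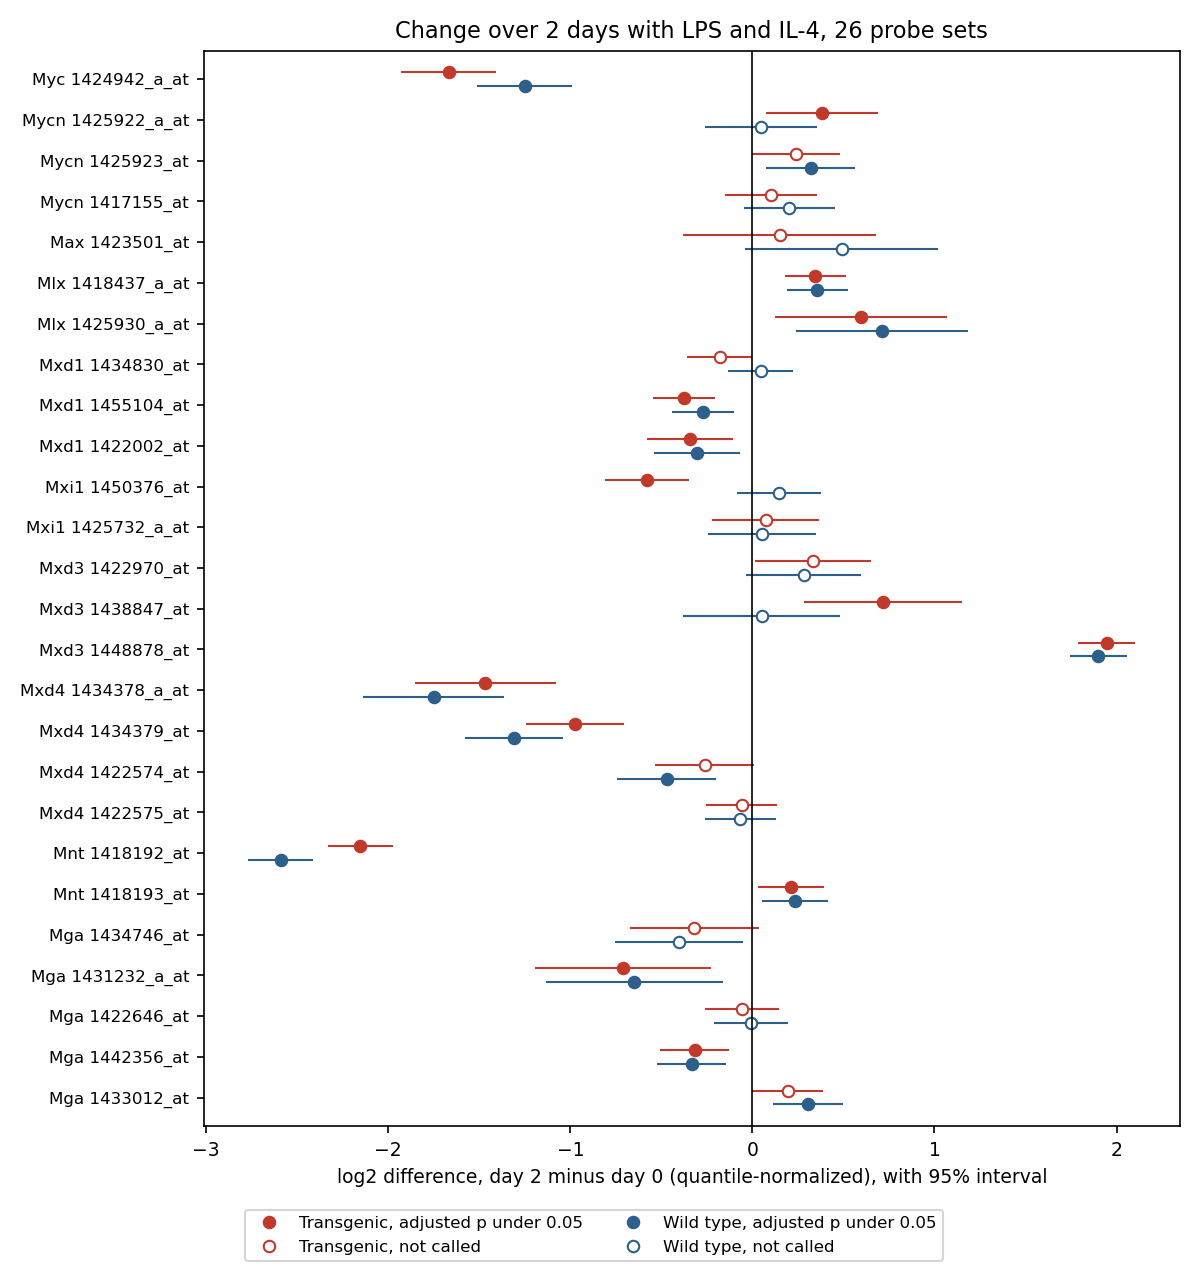
Log2 difference of day 2 minus day 0 after quantile normalization (horizontal axis) with its 95% interval for the 26 probe sets, in transgenic and wild type cells, filled where the adjusted p lay under 0.05. Mnt 1418192_at has the lowest values, −2.15 in transgenic and −2.59 in wild type cells, and Mxd3 1448878_at the highest, 1.95 in transgenic and 1.90 in wild type cells.

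In unstimulated cells the genotypes differed at 2 of the 26 probe sets, against 9.45% of all probe sets, so the network's share was near the background. Mxi1 was higher and Mnt was lower in transgenic cells. A further 4 probe sets had an unadjusted p under 0.05 and were not called. The median difference over the 26 was 0.05, and that over all probe sets 0.01. Mxi1 (1450376_at) read 8.08, 8.19 and 8.38 in transgenic arrays, against 7.68, 7.82 and 7.56 in wild type arrays. Every transgenic array lay above every wild type one, and the difference was 0.53 ± 0.11 (1.44-fold, adjusted p = 0.0079 by limma). Without any single array it stayed between 0.45 and 0.60 and was called. The other Mxi1 probe set differed by 0.12 ± 0.14 and was not called. Mnt (1418192_at) read 9.86, 9.78 and 9.74 in transgenic arrays, against 10.43, 10.15 and 10.19 in wild type arrays. Here every transgenic array lay below every wild type one, and the difference was −0.46 ± 0.08 (1.38-fold lower, adjusted p = 0.0042). Without any single array it stayed between −0.52 and −0.38 and was called. The second Mnt probe set differed by 0.05 ± 0.08 and was not called.

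Markers of other cell types moved with the genotype in the same arrays. All 9 measured granulocyte markers were higher in unstimulated transgenic cells, and their mean level was 9.54 to 10.11 in transgenic arrays, against 6.17 to 6.47 in wild type arrays. Given with their mean levels in transgenic against wild type arrays, 9 of 10 macrophage and monocyte markers were higher (8.26 to 8.58 against 6.94 to 7.21), 6 of 7 erythroid markers (7.41 to 7.89 against 5.93 to 6.50), 4 of 7 plasma cell markers (9.63 to 9.70 against 9.02 to 9.34), 4 of 9 T and NK cell markers (7.18 to 7.31 against 6.45 to 6.84) and 1 of 5 platelet markers (6.50 to 6.66 against 6.26 to 6.44). B cell markers averaged 12.06 to 12.12 in transgenic and 12.05 to 12.20 in wild type arrays, and 1 of 7, Blk (named after its value was seen), was called lower at −0.27. The part of other cells in the differences of Mxi1 and Mnt was not tested. At day 2, 3 of 9 granulocyte, 3 of 10 macrophage and monocyte and 0 of 7 erythroid markers were higher in transgenic cells, as were 3 of 7 plasma cell, 1 of 9 T and NK cell and 1 of 5 platelet markers.

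Other members were not called between the unstimulated genotypes. Myc averaged 11.09 ± 0.19 in transgenic and 10.93 ± 0.15 in wild type cells (SD, n = 3 each), a difference of 0.16 ± 0.12 with a 95% interval of −0.10 to 0.43 (adjusted p = 0.46). Mxd1 was above wild type on every transgenic array at 1434830_at (0.23 ± 0.08, adjusted p = 0.0998) and 1455104_at (0.25 ± 0.08, adjusted p = 0.067), and the difference was called at 1434830_at without wild type replicate 1 (0.30) and at 1455104_at after quantile normalization (0.27). Mxd3 1438847_at differed by −0.54 ± 0.20 (adjusted p = 0.11). Without wild type replicate 3, calls were added for Mycn 1425923_at (0.36), Mxd3 1438847_at (−0.78) and Mga 1434746_at (−0.52), for 5 calls in all. Max differed by 0.16 ± 0.26 (−0.39 to 0.71), and the Mlx, Mxd4 and remaining probe sets lay between −0.34 and 0.37.

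**Figure D3:**
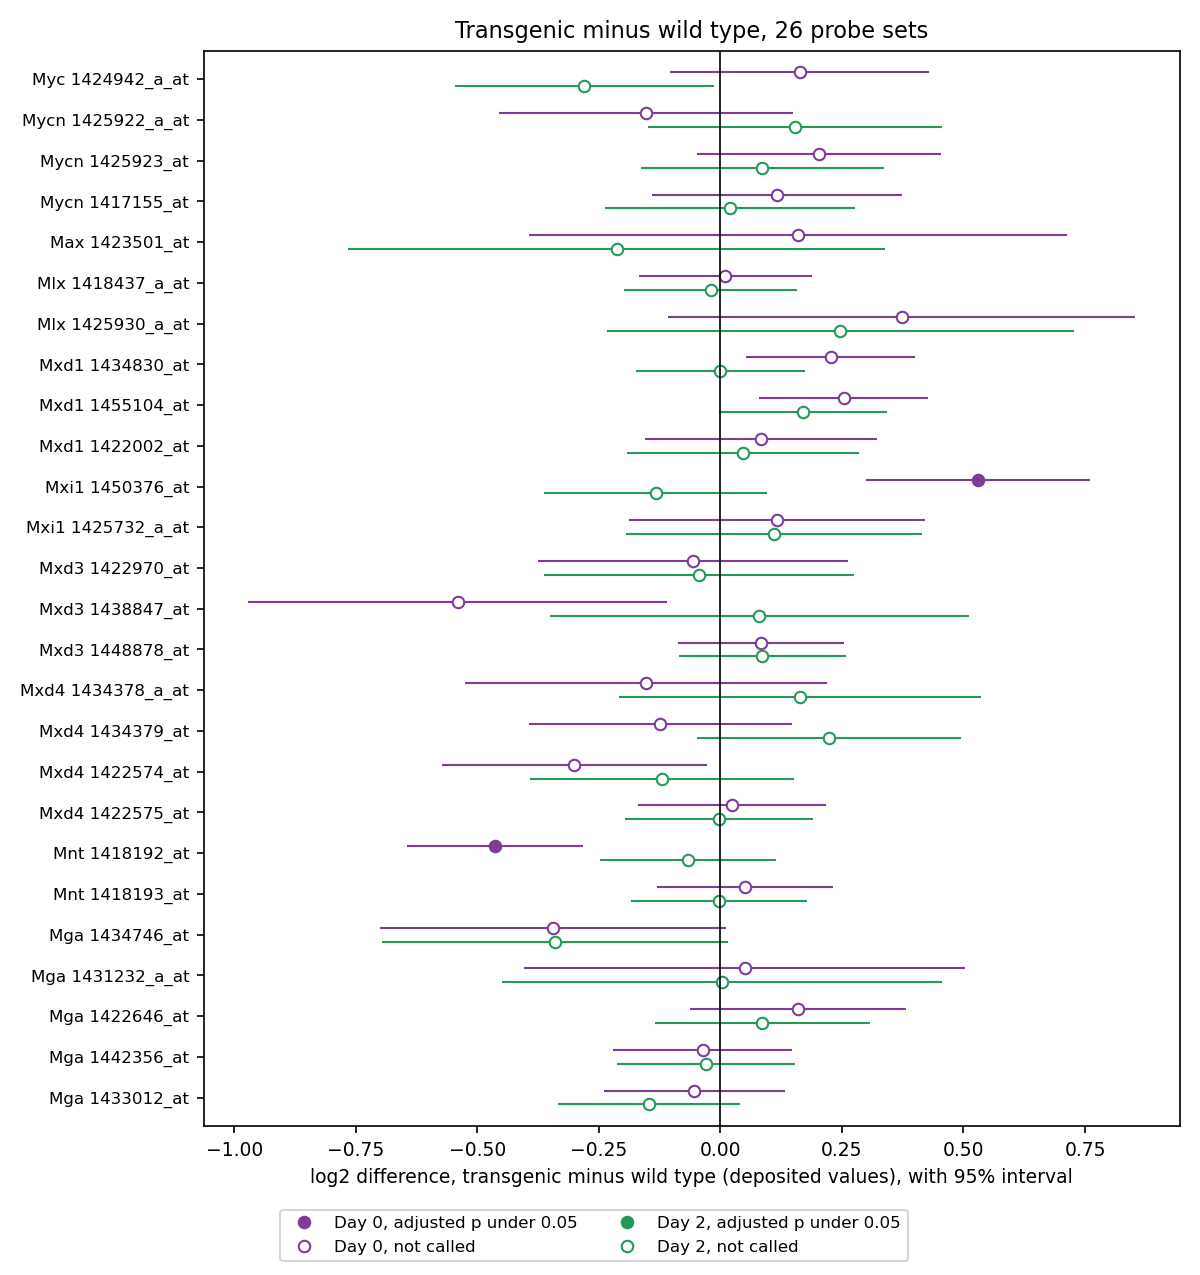
Log2 difference of transgenic minus wild type on the deposited values (horizontal axis) with its 95% interval for the 26 probe sets, at day 0 and at day 2, filled where the adjusted p lay under 0.05. The filled points are Mxi1 1450376_at at 0.53 and Mnt 1418192_at at −0.46, both at day 0.

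At day 2 limma called 0 of the 26 probe sets between the genotypes, against 1.86% of all probe sets, and 1 of the 26, that of Myc, had an unadjusted p under 0.05. Myc averaged 9.60 ± 0.16 in transgenic and 9.88 ± 0.15 in wild type cells (SD, n = 3 each). The difference was −0.28 ± 0.12, with an interval of −0.55 to −0.01 and an adjusted p of 0.41. Mnt 1418192_at read 7.57, 7.46 and 7.52 in transgenic arrays, against 7.64, 7.54 and 7.57 in wild type arrays, and differed by −0.07 ± 0.08 (−0.25 to 0.12). Mxi1 1450376_at read 7.46, 7.28 and 7.10 in transgenic arrays, against 7.42, 7.41 and 7.41 in wild type arrays, and differed by −0.13 ± 0.11 (−0.36 to 0.10). Both genes overlapped between the genotypes. The groups did not overlap at Mxd4 1434379_at (0.22 ± 0.13) and Mga 1434746_at (−0.34 ± 0.16), neither of them called. The widest interval of the 26 was that of Max (−0.77 to 0.34).

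The difference between the genotypes' stimulation changes was tested as an interaction on the deposited values. It was called at 1 of the 26 probe sets, against 1.58% of all probe sets, and 4 had an unadjusted p under 0.05. The called one was Mxi1 1450376_at, whose stimulation change in transgenic cells lay below that in wild type cells by −0.66 ± 0.15 (adjusted p = 0.0471). The call was lost without any one of 11 of the 12 arrays, with values of −0.73 to −0.57 and adjusted p values up to 0.121, and was kept only without transgenic day 2 replicate 1 (−0.75). For Myc the interaction was −0.44 ± 0.17 (−0.82 to −0.07, adjusted p = 0.28), which was not called. For Mnt 1418192_at it was 0.40 ± 0.12 (adjusted p = 0.14) and for Mxd3 1438847_at 0.62 ± 0.28 (adjusted p = 0.37), neither called.

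The genes around the network were described from 6 lists, with 1 probe set per gene, the one with the highest mean over the 12 arrays. On that basis 2 of the 10 network genes were called higher and 4 lower after stimulation in transgenic cells, against 35.2% higher and 23.3% lower among all genes. In wild type cells 1 was higher and 3 lower, against 35.9% higher and 24% lower among all genes. The probe sets used for Shmt2, Cdk4, Rrm2, Aurkb and Rbbp7 end in _x_at and may also detect related transcripts.

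Targets of MYC rose while Myc itself was lower. Of 38 measured genes of growth known as MYC targets, 35 were higher and 1 lower in transgenic cells at day 2, and 37 were higher and 0 lower in wild type cells. Their median difference was 1.40 in transgenic and 1.598 in wild type cells, against 0.08 over all genes in each genotype. The direction held under the other scalings, with 36 and 38 of 38 higher in transgenic cells, 38 of 38 higher in wild type cells under both, and 0 lower. Srm, the spermidine synthase, rose by 2.59 ± 0.14 in transgenic and 3.44 ± 0.14 in wild type cells. The cyclin gene Ccnd2 rose by 2.56 ± 0.10 in transgenic and 3.39 ± 0.10 in wild type cells. Ppat of purine synthesis rose by 2.45 in transgenic and 2.52 in wild type cells, and Shmt2 of mitochondrial one-carbon metabolism by 2.31 in transgenic and 2.69 in wild type cells. The 1 lower gene in transgenic cells was Odc1 (ornithine decarboxylase) at −0.37, named after its value was seen. Under the scaling with 38 of 38 higher it was called higher, so its direction depends on the scaling. The E-box lay in 28.2% of the 39 promoter windows at hand for these targets, and an E2F site in 12.8%.

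All 19 measured genes of cell division were higher at day 2 in each genotype, also under both other scalings. Their median difference was 2.35 in transgenic and 2.64 in wild type cells. The kinetochore kinase gene Bub1 rose by 4.13 ± 0.24 in transgenic and 4.47 ± 0.24 in wild type cells, and Aurkb of the chromosomal passenger complex by 3.61 in transgenic and 4.01 in wild type cells. Rrm2, a subunit of ribonucleotide reductase, rose by 3.32 in transgenic and 4.04 in wild type cells. Birc5 (survivin) rose by 3.35 in transgenic cells and Cdk1 by 3.85 in wild type cells.

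Proteins that work with MYC or set its lifetime were 11 higher and 4 lower of 20 in transgenic cells and 11 higher and 5 lower in wild type cells. Aurka, a mitotic kinase known to stabilise MYCN, rose by 3.23 ± 0.10 in transgenic and 3.37 ± 0.10 in wild type cells. The ATPase gene Ruvbl1 rose by 1.70 in transgenic and 2.00 in wild type cells, its partner Ruvbl2 by 1.496 in transgenic and 1.638 in wild type cells, and Skp2, a ubiquitin ligase subunit that acts on MYC, by 1.31 in transgenic and 1.52 in wild type cells. The lower genes, named after their values were seen, were Trrap, Ep400, Pim1 and Bin1 in transgenic cells (−1.07 to −0.49) and Trrap, Ep400, Usp28, Bin1 and Gsk3b in wild type cells (−1.41 to −0.42). With array medians subtracted, 14 were higher and 1 lower in transgenic cells and 14 higher and 4 lower in wild type cells.

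The SIN3 and HDAC corepressor, through which the MXD proteins and MNT repress, had 7 of 14 measured genes higher and 5 lower in each genotype. Arid4b, a SIN3 complex subunit, fell by 1.42 ± 0.10 in transgenic and by 1.86 ± 0.10 in wild type cells, while the subunit gene Sap30 rose by 1.35 in transgenic and 0.92 in wild type cells and the histone chaperone gene Rbbp7 by 0.88 in transgenic and 0.86 in wild type cells. The deacetylase gene Hdac2 rose by 1.05 in transgenic cells, and Arid4a fell by 0.99 in wild type cells. The other lower genes, named after their values were seen, were Sin3a, Ing1 and Ing2, with Arid4a, in transgenic cells (−0.81 to −0.26) and Sin3a, Ing1 and Ing2 in wild type cells (−0.79 to −0.56). With array medians subtracted, 11 were higher and 2 lower in transgenic cells and 9 higher and 3 lower in wild type cells. Some of the genes named as lower in transgenic cells were thus called higher under that scaling, and their direction depends on it.

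Of 8 measured partners of MGA in PRC1.6, 5 were higher and 0 lower in transgenic cells and 6 higher and 1 lower (Rnf2, −0.26, named after its value was seen) in wild type cells. Tfdp1, the E2F dimer partner, rose by 2.55 ± 0.09 in transgenic and 2.95 ± 0.09 in wild type cells. The repressor gene E2f6 rose by 1.37 in transgenic and 1.84 in wild type cells, and the Polycomb ring-finger gene Pcgf6 by 0.81 in transgenic and 0.58 in wild type cells. Yaf2 rose by 0.48 in transgenic cells and Cbx3 by 0.50 in wild type cells, the Cbx3 value being −0.037 and not called on the deposited values. In transgenic cells the fifth higher gene was L3mbtl2 (0.46), named after its value was seen. Of the 3 remaining network factors, Mlxip, a glucose-responsive partner of MLX, fell by 1.04 ± 0.10 in transgenic and by 1.71 ± 0.10 in wild type cells, and Mycl, the third MYC paralog, fell by 0.72 in transgenic and by 0.36 in wild type cells. The wild type call of Mycl was lost without day 0 replicate 3 (−0.30) or day 2 replicate 1 (−0.33) or 2 (−0.36).

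**Figure D4:**
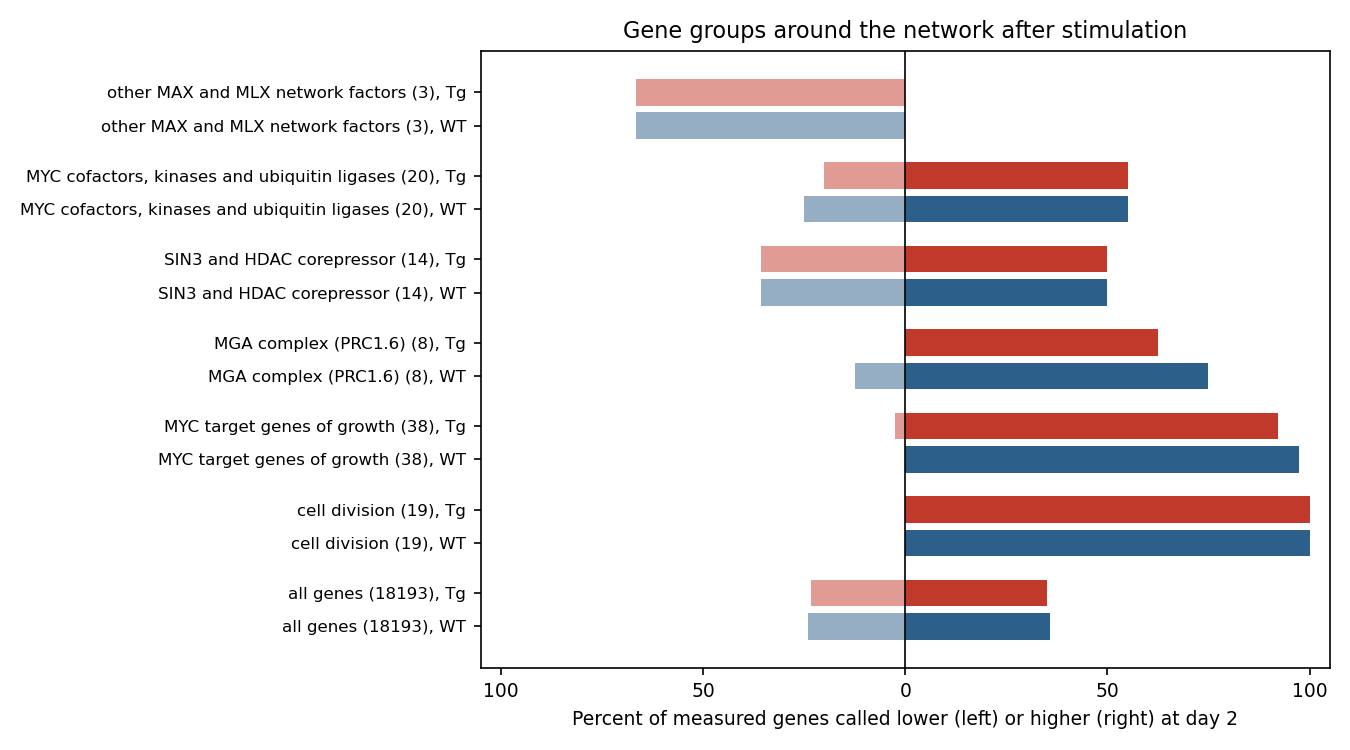
Percent of the measured genes of each list (number in parentheses) called lower (left of 0) or higher (right of 0) at day 2, in transgenic and wild type cells, with all genes at the bottom. All 19 genes of cell division and 35 of the 38 MYC targets in transgenic and 37 in wild type cells were higher, against 35.2% and 35.9% of all genes.

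Between the unstimulated genotypes 1 of the 10 network genes was called higher and 1 lower, against 5.45% higher and 4.9% lower among all genes. The MYC targets had 4 higher and 1 lower of 38, and 2 to 5 higher without any single array. Ccnd2 was higher by 0.76 ± 0.08 (adjusted p = 8.12e-05) and Eif4a1, a translation initiation helicase, by 0.64 ± 0.11, and both calls held without any single array. Cdk4 was higher by 0.45, a call lost without wild type replicate 1 (0.33) or transgenic replicate 3 (0.40), and Odc1, named after its value was seen, by 0.38. Tfrc, the transferrin receptor, was lower by −0.44, a call lost without replicate 1 or 2 of either genotype (−0.46 to −0.36). Genes of cell division had 3 higher of 19, namely Rrm2 (0.58), Aurkb (0.45) and Mcm6 (0.32), of which Aurkb kept its call without each single array. Their number was 6 without wild type replicate 1 and 1 without transgenic replicate 3. In a fit on the 6 unstimulated arrays alone 0 of the 19 were called (adjusted p = 0.055 for Aurkb), and 2 of the 38 MYC targets, Ccnd2 and Eif4a1.

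Of the MYC cofactors 0 were higher and 5 lower of 20 in unstimulated transgenic cells. Gsk3b, the kinase that marks MYC for degradation, was lower by −0.74 ± 0.12 (adjusted p = 0.0017), and this call held without any single array. The others were Usp37 (−0.55), Ep400 (−0.42), Trrap (−0.30) and, named after its value was seen, Usp28 (−0.27). The Usp37, Ep400 and Trrap calls were lost without wild type replicate 1 (−0.34, −0.325 and −0.255) and without transgenic replicate 1 or 3. The number of lower genes was 1 without wild type replicate 1 or without transgenic replicate 1 or 3, and 8 at most. Of these arrays, wild type replicate 1 alone stood apart in its control probes. Of the corepressor genes 0 were higher and 3 lower of 14, with Arid4a at −0.61, Arid4b at −0.50 ± 0.11 and Sin3a at −0.37, and 1 lower call, that of Arid4b, held without each single array. Of the PRC1.6 genes Cbx3 (0.44) and E2f6 (0.33) were higher and Rnf2 (−0.50) and Pcgf6 (−0.49) lower, with 1 call, that of Rnf2, left without transgenic replicate 3. Mlxip was lower by −0.57 ± 0.11 (adjusted p = 0.0071). In the fit on the 6 unstimulated arrays alone 1 of the 20 cofactors (Gsk3b), 0 of the 14 corepressor genes (adjusted p = 0.057 for Arid4b) and 2 of the 8 PRC1.6 genes (Rnf2 and Cbx3) were called, and Mlxip kept its call (adjusted p = 0.0495). These lists share the arrays in which markers of other cell types were higher, whose part in them was not tested.

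At day 2 limma called 1 of the 102 measured list genes between the genotypes, against 2.34% of all genes, the RNA polymerase I subunit gene Polr1b, lower in transgenic cells by −0.92 ± 0.09 (adjusted p = 6.70e-05). The interaction was called for 4 of the 102, against 1.98% of all genes, namely Polr1b (−0.80 ± 0.12), Ccnd2 (−0.71 ± 0.11) and Cdk4 (−0.67 ± 0.15, at a probe set that may also detect related transcripts) among the MYC targets and for Gsk3b (0.78 ± 0.16) among the cofactors. The Cdk4 call was lost without any of 10 single arrays (−0.72 to −0.62) and the Gsk3b call without any of 8 (0.68 to 0.83).

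The genes whose pattern over the 12 arrays was most like that of Myc were H2-DMb2 (Pearson r = 0.990), a chain of the peptide-loading factor of MHC class II, Rasal3 (0.989) and Cyth2 (0.987), among 10851 genes searched. Those most like Mxi1 were Fcna (0.936), Igfbp4 (0.932) and Rab43 (0.929). Fcna averaged 5.997 in day 2 transgenic, 6.14 in day 2 wild type, 7.96 in day 0 transgenic and 5.79 in day 0 wild type cells. These correlations run over arrays that share state and genotype and are a description only.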

How the data were processed

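Biotin-labelled RNA of 12 samples was hybridized to single-channel Affymetrix mouse genome arrays. Per the submitters' processing notes, RMA of the affy package (no version named) gave the deposited log2 value of each probe set. If day 0 and day 2 arrays entered 1 normalization is not given in the sources here. The deposited table holds 45101 probe sets, of which 64 array controls were left out. A single symbol was given for 34945 of the rest, several for 932 and none for 9160, and 34741 of the first also matched a RefSeq table of GRCm38.p6 by Entrez identifier.

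A linear model was fitted to the 12 arrays with limma 3.58.1 (R 4.3.3), using a coefficient for each group and no block (8 residual degrees of freedom, and 4.71 prior ones on deposited or 4.56 on quantile-normalized values). Tests are 2-sided, and p-values were adjusted by Benjamini and Hochberg over 45037 probe sets. The p-values measure the spread between these samples, which the labels call independent biological replicates. Genotype differences and the interaction used deposited values, and stimulation changes values quantile-normalized over the 12 arrays. The members, lists and tests were chosen with earlier results of these data known. The text names every probe set of the 10 members, up to 4 called genes with the largest change per list and comparison, and the 3 genes most like Myc and like any member called in the interaction; other genes are marked as named after their values were seen.

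Same-numbered replicates were checked for pairing by correlating their deviations from group means. For the stimulated genotypes r was 0.459, 0.177 and 0.249, and for wild type stimulation 0.377, 0.274 and 0.228, so the numbers were taken to pair these samples by a fixed rule of r over 0.1 in every pair. By that rule they did not for the unstimulated genotypes (0.136, 0.086 and 0.328) or transgenic stimulation (0.127, −0.265 and 0.184). For the unstimulated genotypes each of these r values still lay above those of different-numbered replicates (−0.195 to 0.076). The main fit has no block for the replicate number, and calls with such a block are given below. The labels name no pairing.

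Alternatives were other scalings, a replicate block, a fit on the compared groups alone, a trended prior, dim probe sets left out, each array left out and, for lists, the most variable probe set. On simulated data with 200 of 45037 probe sets changed, the unstimulated genotype comparison recovered 48% of log2 changes of 0.5 and 96% of changes of 1, and the interaction 20% and 78%. The simulation drew independent noise and changed far fewer probe sets than the 4256 called between the unstimulated genotypes. Its shares are therefore not estimates of the power of these tests.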

Additional observations from a re-analysis of the deposited data

Results flagged for a closer look

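The change over 2 days of stimulation differed between the genotypes for 5 of the genes named, by the test of that difference itself. For Mxi1 (1450376_at) the stimulation change in transgenic cells minus that in wild type cells was −0.66 on the log2 scale, with day 0 transgenic arrays above all others, and the call was lost without any of 11 single arrays (adjusted p up to 0.121), with array medians subtracted (0.062), a replicate block (0.066) or a trended prior (0.058). For Polr1b it was −0.80, for Ccnd2 −0.71, for Cdk4 −0.67 and for Gsk3b 0.78. Between the genotypes, Ccnd2 (0.76), Cdk4 (0.45) and Gsk3b (−0.74) were called at day 0 alone, and Polr1b (−0.92) at day 2 alone. The Polr1b and Ccnd2 differences were called under every alternative run. The Gsk3b call was lost with a replicate block (adjusted p = 0.052) and without any of 8 single arrays (adjusted p up to 0.094), and the Cdk4 call under quantile normalization (−0.76, adjusted p = 0.063) and without any of 10 single arrays (adjusted p up to 0.128). Granulocyte, macrophage and erythroid markers also differed in their stimulation change, at 9 of 9, 5 of 10 and 5 of 7 genes, and their part in these values was not tested.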

How the results depend on the processing

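For the network's probe sets and the up to 4 called genes per list and comparison, 2504 differences were recomputed under the alternatives. Of these, 2205 kept direction and side of the threshold, 137 lost a call and 37 gained one. A further 108 turned sign with no call under either setting, and 17 turned sign with a call under at least one. Genes named after their values were seen are not in this tally, and some of them turned with a call under another scaling. Of 550 recomputed counts of calls, 463 stayed within 1.5 times. Those 17 turned on the deposited values, whose array medians differ between the days: in transgenic cells Mycn 1425922_a_at (−0.24), 1425923_at (−0.38) and 1417155_at (−0.35), Mlx 1418437_a_at (−0.04), Mxi1 1425732_a_at (−0.55), Mnt 1418193_at (−0.42) and Mga 1433012_at (−0.35), and in wild type cells Mycn 1425922_a_at (−0.54) and 1425923_at (−0.26), Mlx 1418437_a_at (−0.01), Mxd1 1434830_at (−0.49), Mxi1 1450376_at (−0.27) and 1425732_a_at (−0.55), Mxd3 1438847_at (−0.50), Mnt 1418193_at (−0.36), Mga 1433012_at (−0.25) and Cbx3 (−0.037). Of all probe sets 4256 were called between the unstimulated genotypes, 1908 in a fit on those 6 arrays alone, which has fewer degrees of freedom, and 2174 to 7518 without single arrays. With array medians subtracted 1585 were higher and 2622 lower, against 2013 and 2243. Leaving out dim probe sets, which removes tests, gave 15525 and 15818 stimulation calls in transgenic and wild type cells, against 24843 and 25548. At day 2 the genotypes differed at 839 probe sets, and at 452 to 597 without single arrays. The interaction had 710 calls, and 388 to 1418 without single arrays. Of the network, 2 to 5 probe sets were called between the unstimulated genotypes without single arrays, and 0 to 1 in the interaction. Without wild type day 0 replicate 3 that 1 was Mxd4 1434379_at (0.515, adjusted p = 0.049 by limma) in place of Mxi1. The Mxi1 interaction call was lost, leaving 0, with array medians subtracted (adjusted p = 0.062), a replicate block (0.066) or a trended prior (0.058); the cause was not tested. With the replicate block the network had 2, 0, 16, 16 and 0 calls in the unstimulated and stimulated genotypes, transgenic and wild type stimulation and the interaction. Beside the Mxi1 interaction, it changed member calls for Mxd4 1422574_at in transgenic cells (−0.26, adjusted p = 0.040) and Mga 1434746_at in wild type cells (−0.40, adjusted p = 0.026). Taking the most variable probe set per gene changed the higher or lower count in 13 of 30 list comparisons, by at most 2 genes, and moved the number called by over 1.5 times in 2, the cofactors in the interaction (0 genes) and PRC1.6 between the unstimulated genotypes (2 genes). The number of arrays per group limits the precision, and 4 member probe sets below the array median throughout give little signal.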
